A study of Arabidopsis thaliana with 27 samples.

Results

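Epi 8 is a line of Arabidopsis thaliana, and the comparison described here asks which genes responded to it differently in leaf and in root. For each gene the effect of Epi 8 in leaf (Epi 8 leaf against wild-type leaf) was set against its effect in root (Epi 8 root against wild-type root). The difference of the 2 log2 fold changes, leaf minus root, is called the interaction. It used 12 of the 27 libraries of the series, 3 individual plants (P1, P2 and P3) for each line in each organ, and all 22114 genes with enough counts were tested. Of these, 68 genes differed in their Epi 8 effect between the organs and form the subject of this section.

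Epi 8 descends from a cross in which Columbia-0 wild type (WT) was pollinated by an msh1 T-DNA mutant. The progeny were selfed and genotyped, and plants with the wild-type MSH1 gene founded the family, so Epi 8 and WT share the Columbia-0 background and carry MSH1. MSH1 encodes an organelle-targeted protein that guards plastid and mitochondrial genomes, and its loss changes growth and stress responses in later generations. The leaf plants were sampled as rosette leaves at bolting, at an age of 4 weeks by the published methods, and grown on peat mix in 12 h days at 22 °C. The root plants were 10 days old and grew on 0.5 strength Murashige and Skoog medium. Both lines shared age and medium in root and shared medium in leaf. No age is recorded for the single leaf plants. The paper describes early flowering in the epi-line used here. Leaf plants of both lines taken at bolting may therefore have differed in age, and plants of equal age in stage. Such an offset between the leaf groups was not tested. Leaf and root differed in age and medium, so organ, age and growth medium cannot be told apart in any value below. Epi 8 is 1 family, so the values describe that family.

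Ribosomes are built from ribosomal RNA and many proteins, and most Arabidopsis ribosomal proteins are encoded by several near-identical genes. Their messenger RNAs are most abundant in dividing and growing tissue, together with those of nucleolar assembly factors and of histones. Abscisic acid (ABA) is sensed by receptors of the PYL family, which inhibit phosphatases such as HAB1, and the circadian clock is a loop of morning and evening genes that repress or activate each other in turn.

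Leaf libraries held 48098795 to 90808615 counts and root libraries 18596963 to 20041205. Levels are given as counts scaled by library size and TMM factor to CPM (counts per 1000000), and 3 counts correspond to 0.033 to 0.0624 CPM in a leaf library and to 0.15 to 0.161 CPM in a root library. These floors and the marker sums use library size alone, without the TMM factor, and the floors cover counting error only. The organ labels held: all 10 leaf markers were higher in leaf, at a summed 34100 to 44000 CPM against 262 to 646 in root, and 11 of 12 root markers were higher in root, at 12600 to 18700 CPM against 31.8 to 43.5 in leaf. The exception among root markers was SCR, which leaf tissue also transcribes. Most of the root marker sum in leaf was SCR (33.1 to 36.9 CPM in Epi 8 and 25 to 27.9 in WT), while 5 root markers were at 0 in all leaf libraries and PYK10, at 12100 to 18100 CPM in root, was at most 0.471 CPM. The 5 flower markers summed to at most 1.60 CPM in leaf and 7.41 in root. None of these markers differed in Epi 8 effect between the organs. MSH1 itself had an interaction of -0.33 ± 0.26 (SE, adjusted p = 0.599, edgeR). All p-values rest on the spread among 3 plants per group.

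The Epi 8 effect differed between leaf and root in 68 genes, 0.307% of those tested, at an adjusted p under 0.05 and an absolute log2 difference of at least 0.5 (edgeR quasi-likelihood test with Benjamini-Hochberg adjustment over all genes). In 58 of them, 0.262% of all genes, the leaf effect lay below the root effect. In the other 10, or 0.0452%, it lay above. Of the 58 genes, 25 encoded cytosolic ribosomal proteins and 3 were in the list of ribosome biogenesis factors. The adjusted p-values of the 68 ran from 0.0201 to 0.0481, so that all lay near the threshold, and their median interaction was -0.97 against -0.02 over all genes. With no adjustment of p and the same limit on fold, 2429 genes or 11.0% passed, 962 with a positive and 1467 with a negative interaction.

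Most of these genes had a lower level in Epi 8 leaf beside a slightly higher level in Epi 8 root. Of the 58 genes, 56 had a negative leaf fold change and 56 a positive root fold change, with medians of -0.71 in leaf and 0.27 in root. The 10 genes of the other group had medians of 0.55 in leaf and -0.72 in root. Taken one organ at a time, Epi 8 differed from WT in 201 genes in leaf (0.909% of all), 173 of them lower in Epi 8 (0.782%), and in 4 genes in root (0.0181%). Of the 68 genes, 49 passed the leaf test and 4 the root test. In 60 of them the 3 Epi 8 leaf plants did not overlap with the 3 WT leaf plants, and in 46 the root plants did not overlap, shares to be read beside the 23.6% and 13.2% of all genes for which the same held. The groups were apart in both organs in 38 genes, beside 3.31% of all genes. These counts come from the values that chose the 68 genes, so an excess over all genes was built in.

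**Figure D1:**
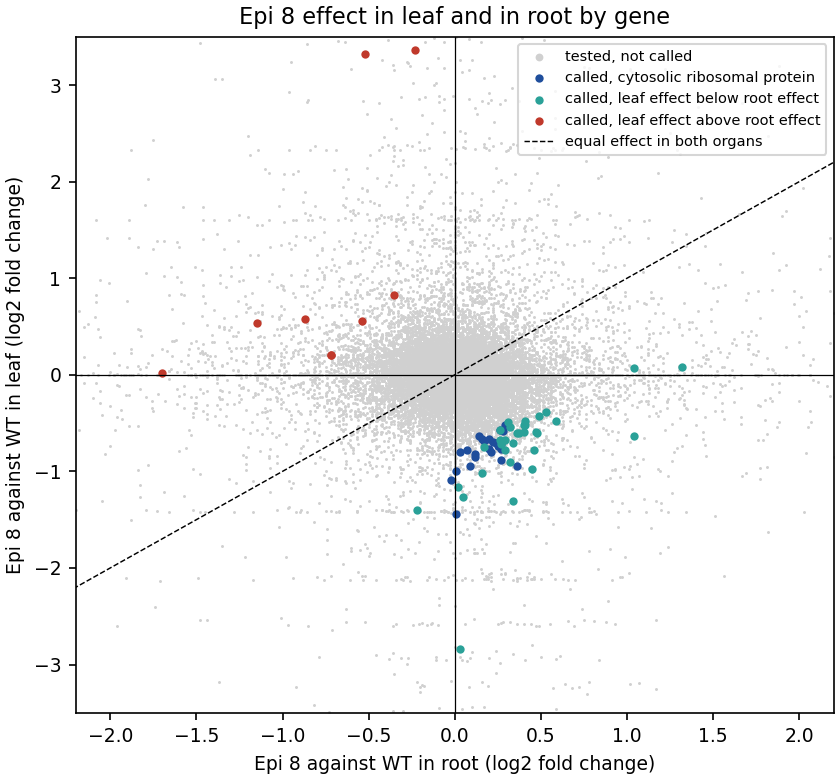
Each point is a gene, with its Epi 8 against WT log2 fold change in root on the horizontal axis and in leaf on the vertical axis (3 plants per group). Colored points are the 68 called genes, most of them at the lower right, where leaf was lower and root slightly higher in Epi 8. PME61 and AT3G27250, with root values of 7.36 and -7.27, and the uncalled genes beyond the axis limits are not shown.

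The number of genes depended on single plants. Leaving out WT leaf P2, Epi 8 root P2 or WT root P3 in turn left 0 genes (2013, 2146 and 2658 before adjustment of p, edgeR). Without Epi 8 leaf P1, P2, WT leaf P1, Epi 8 root P3 or WT root P1 the counts were 1, 7, 15, 4 and 12, and without WT leaf P3 the count was 167. The 201 leaf calls became 42, 43 and 117 without Epi 8 leaf P1, P2 and P3, 49 and 26 without WT leaf P1 and P2, and 130 and 117 without Epi 8 root P2 and P3. The 4 root calls became 24 without WT root P2. They became 0 without Epi 8 root P1, Epi 8 root P2 or WT root P1 (1217, 926 and 1250 before adjustment of p), and 1 without Epi 8 leaf P1, Epi 8 leaf P2, any WT leaf plant or WT root P3. Directions changed less than counts. The alternative settings reuse most or all of the data that chose the 68 genes, so they are no independent check. In each of 23 alternative settings, these plant removals included, every one of the 68 genes that could be fitted kept its direction, an absolute interaction of at least 0.5 and an unadjusted p below 0.05, the largest being 0.0139. With leaf counts thinned to root depth, 49 of the 68 genes were called. Among the named genes of the 68, the low genes AT2G23540 and AT4G38080 and the pair with an empty root group (PME61 and AT3G27250) moved most in size.

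**Figure D2:**
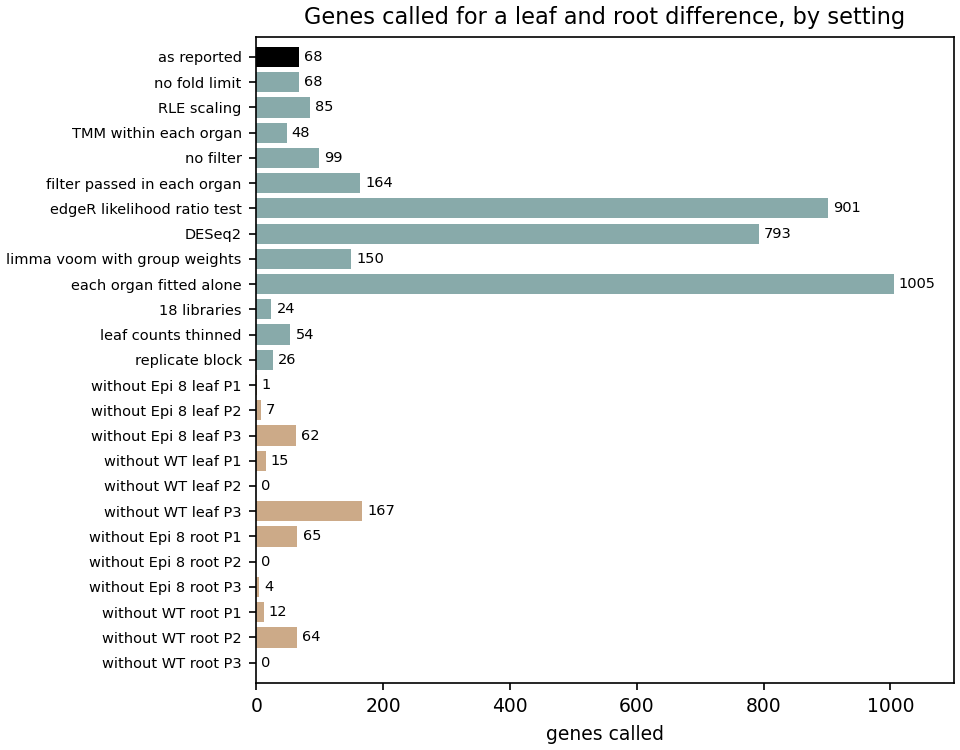
Bars give the number of genes called for a leaf and root difference (adjusted p under 0.05 and fold limit), for the reported fit in black, for other scalings, filters, tests and designs in grey-blue, and for fits without 1 library in tan. The reported count is 68 and the fits without 1 library run from 0 to 167. The count at an unadjusted p is left out. The bar for each organ fitted alone rests on a normal approximation.

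Cytosolic ribosomal protein genes formed the largest group. Of 189 genes in the list, 176 could be tested, and 25 (14.2%) passed, all with the leaf effect below the root effect, where 0.262% of all genes did so. This list was widened to further annotated family names after calls had been seen, so the share is not independent of the calls. The list had a median interaction of -0.72, made of a median of -0.55 in leaf and 0.13 in root, beside -0.02, 0.00 and 0.02 over all genes. In 170 of the 176 genes the interaction was negative, beside 11507 of 22114 over all genes. Before adjustment of p, 139 (79.0%) passed, beside 11.0% of all genes. Leaf alone gave 77 of the 176 list members lower in Epi 8 and none higher, where 0.782% of all genes were called lower. Root alone gave none in either direction, although 160 of 176 root fold changes were positive, beside 11698 of 22114 over all genes. The count was 0 without Epi 8 leaf P1, WT leaf P2, Epi 8 root P2, Epi 8 root P3 or WT root P3, 1 without Epi 8 leaf P2, 3 without WT leaf P1 or WT root P1, and 61 without WT leaf P3. In all fits without 1 plant the list median stayed between -0.77 and -0.63, and 125 to 149 genes passed before adjustment.

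Summed over the list, the cytosolic ribosomal protein genes reached 15224, 14089 and 14657 CPM in the Epi 8 leaf plants. In WT leaf the sums were 21568, 22080 and 19029 CPM, so that every Epi 8 leaf plant lay below every WT leaf plant. In root the sums were 50575, 56492 and 59124 CPM in Epi 8 and 50067, 52349 and 50078 in WT. The root groups overlapped, with Epi 8 P2 and P3 above all WT plants. WT root carried more of these transcripts than WT leaf. Of the 176 tested genes of the list, 174 were higher in WT root than in WT leaf, all 25 called genes among them.

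**Figure D3:**
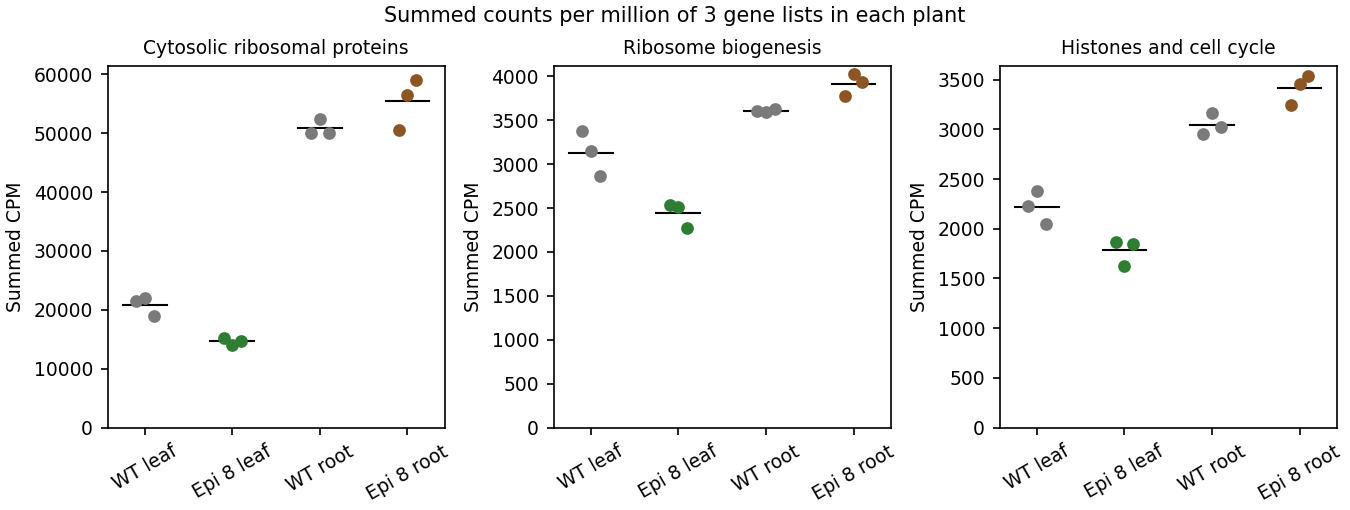
Summed CPM of 3 gene lists in each plant (points, 3 per group) with the group mean (line), for WT and Epi 8 in leaf and root. In leaf the Epi 8 plants lie below the WT plants in all 3 panels, and in root the Epi 8 means lie above the WT means.

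AT1G07070 encodes a ribosomal protein of the L35Ae family, in the large subunit. Its levels were 11.8, 11.4 and 11.4 CPM in Epi 8 leaf and 20.4, 26.1 and 19.8 CPM in WT leaf, against 59.6, 65.7 and 74.3 CPM in Epi 8 root and 56.7, 49.6 and 49.6 CPM in WT root. The groups were apart in both organs and in opposite directions. The interaction was -1.29 ± 0.18 (SE, adjusted p = 0.0201, edgeR), from -0.94 in leaf and 0.36 in root.

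AT3G53890 encodes ribosomal protein S21e of the small subunit. It stood at 65.3, 59.2 and 82.1 CPM in Epi 8 leaf and 129, 131 and 119 CPM in WT leaf, and at 243, 267 and 270 CPM in Epi 8 root and 208, 228 and 210 CPM in WT root. Again neither pair of groups overlapped, and the interaction was -1.15 ± 0.17 (adjusted p = 0.0231, edgeR).

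In other ribosomal protein genes the root fold change was near 0. AT2G25210, of the L39 family, had 11.1, 8.97 and 12.7 CPM in Epi 8 leaf against 26.7, 38.9 and 23 CPM in WT leaf. Its root levels were 205, 211 and 252 CPM in Epi 8 and 240, 239 and 185 CPM in WT, with a root fold change of 0.01 ± 0.19. The interaction of -1.45 ± 0.27 (adjusted p = 0.0433, edgeR) was the largest among the 25 called genes. AT2G40205, of the L41 family, fell in leaf, with a log2 fold change of -1.09 (adjusted p = 0.00398, edgeR) with a root value of -0.02. Across the 25 genes the leaf groups were apart in 25 and the root groups in 13. In the whole list of 176 they were apart in 160 and 41, and over all genes in 23.6% and 13.2%. Among the 25 the interaction ran from -1.45 to -0.77, and 8 met the definition of a reversal given below. The other members of the 25 named by the rule were AT4G18100 of the L32e family (-1.04 ± 0.14) and AT4G31985 of the L39 family (-1.03 ± 0.17). The genes whose upstream sequences are shown next had -1.03 ± 0.19 (RPL27AB), -1.01 ± 0.14 (AT4G13170) and -0.96 ± 0.18 (AT3G59540). Reads that match more than 1 place were discarded upstream, so the levels of near-identical paralogs are uncertain.

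The upstream sequences of 5 called ribosomal protein genes are shown because they hold the letters of motifs known from plant ribosomal protein promoters. They are 250 bases ending at the annotated gene start, 5′ to 3′ on the strand of the gene, from the RefSeq TAIR10.1 assembly. Capitals mark the telo box (AAACCCTA) and the site II motif (TGGGCC or TGGGCT), each searched on both strands. The first 4 genes hold both motifs and AT1G07070 holds site II alone. The windows are chr2:16792623-16792872 (minus strand) for AT2G40205, chr1:8262675-8262924 (plus) for RPL27AB, an L18e/L15 superfamily member, chr4:7656595-7656844 (minus) for AT4G13170, an L13 family member, chr3:21996841-21997090 (minus) for AT3G59540, an L38e family member, and chr1:2168311-2168560 (plus) for AT1G07070.
AT2G40205: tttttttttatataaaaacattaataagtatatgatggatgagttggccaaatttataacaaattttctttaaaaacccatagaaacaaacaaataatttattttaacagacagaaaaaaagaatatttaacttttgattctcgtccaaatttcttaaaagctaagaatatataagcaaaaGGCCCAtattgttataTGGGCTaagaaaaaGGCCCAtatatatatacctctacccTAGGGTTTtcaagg
RPL27AB: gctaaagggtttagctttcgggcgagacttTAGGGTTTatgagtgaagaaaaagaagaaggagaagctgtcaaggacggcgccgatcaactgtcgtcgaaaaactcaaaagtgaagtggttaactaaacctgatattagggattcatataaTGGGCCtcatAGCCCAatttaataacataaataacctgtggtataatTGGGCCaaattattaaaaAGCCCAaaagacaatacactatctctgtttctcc
AT4G13170: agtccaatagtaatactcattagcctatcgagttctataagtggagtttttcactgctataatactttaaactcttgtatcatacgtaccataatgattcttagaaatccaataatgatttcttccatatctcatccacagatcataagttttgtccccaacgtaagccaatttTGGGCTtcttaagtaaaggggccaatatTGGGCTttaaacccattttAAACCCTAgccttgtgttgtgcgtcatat
AT3G59540: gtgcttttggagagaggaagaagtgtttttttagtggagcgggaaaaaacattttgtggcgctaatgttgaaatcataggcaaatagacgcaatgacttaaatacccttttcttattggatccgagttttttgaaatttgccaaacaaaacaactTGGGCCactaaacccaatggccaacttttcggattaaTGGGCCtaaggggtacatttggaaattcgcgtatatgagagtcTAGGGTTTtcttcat
AT1G07070: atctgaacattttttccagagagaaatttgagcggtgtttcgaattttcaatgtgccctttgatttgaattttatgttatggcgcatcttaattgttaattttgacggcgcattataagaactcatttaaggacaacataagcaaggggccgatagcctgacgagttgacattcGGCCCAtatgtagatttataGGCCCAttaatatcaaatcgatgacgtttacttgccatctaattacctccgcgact

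A telo box was present in 6 of the 25 called ribosomal protein genes (24.0%), in 19.3% of all tested genes of the list and in 3.58% of the 22102 windows read. Site II was present in 15 of the 25, in 65.9% of the list and in 21.2% of all windows. Both motifs stood together in 24.0% of the called genes of the list, 14.8% of the list and 1.29% of all windows. Among the 33 genes with a lower leaf effect outside the list, 39.4% held site II, and none of the 10 genes of the opposite direction did. A match is a run of letters and was not tested for function.

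Ribosome biogenesis factors had the same sign. All 33 genes of this list had a negative interaction, with medians of -0.42 for the interaction, -0.33 in leaf and 0.16 in root, and 15 (45.5%) passed at an unadjusted p, beside 11.0% of all genes. FIB2, PUM24 and OLI2 were called, 9.09% of the list beside 0.307%. FIB2 encodes fibrillarin, the methyltransferase of small nucleolar ribonucleoproteins that modify ribosomal RNA. It was at 26.6, 23.7 and 24.6 CPM in Epi 8 leaf against 61.9, 44.7 and 41.5 CPM in WT leaf, and at 164, 185 and 197 CPM in Epi 8 root against 136, 115 and 149 CPM in WT root. Neither pair of groups overlapped, leaf fell and root was higher, and the interaction was -1.43 ± 0.21 (adjusted p = 0.0231, edgeR). PUM24, a pumilio-family RNA-binding protein, had -0.92 ± 0.16 and OLI2, a methyltransferase-family protein of ribosome assembly, -0.80 ± 0.15. Without single plants or under the other settings the number called in this list ran from 0 to 12 and its median interaction from -0.55 to -0.35.

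Plastid ribosomal protein genes showed the same sign in all 38 tested members of the list of 39, with medians of -0.52 for the interaction, -0.40 in leaf and 0.09 in root. Only PSRP4, a plastid-specific subunit, was called (2.63% of the list, beside 0.307% of all genes), and 19 (50.0%) passed at an unadjusted p, beside 11.0%. Without 1 library, the list kept a call only when WT leaf P3 or WT root P2 was left out. PSRP4 levels were 193, 158 and 181 CPM in Epi 8 leaf against 291, 313 and 291 CPM in WT leaf, and 37.6, 33.6 and 29.9 CPM in Epi 8 root against 26.6, 33 and 30.5 CPM in WT root. The leaf groups were apart and the root groups overlapped, with an interaction of -0.92 ± 0.17 (adjusted p = 0.0433, edgeR). The nuclear photosynthesis list had none of its 49 genes called and a median interaction of -0.14.

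Histone and cell cycle genes gave 3 calls among 65 tested (4.62%, beside 0.307% of all genes), a median interaction of -0.56 (leaf -0.36, root 0.18) and a negative sign in 61. No list member was called without Epi 8 leaf P1 or P2, WT leaf P2, Epi 8 root P2 or P3, or WT root P1 or P3 (26 to 32 before adjustment of p, edgeR). The count was 1 without WT leaf P1 or WT root P2 and 8 without WT leaf P3. AT3G27360, a histone gene, had 0.133, 0.195 and 0.221 CPM in Epi 8 leaf and 0.909, 1.74 and 1.29 CPM in WT leaf. In root it had 6.69, 9.88 and 10.1 CPM in Epi 8 and 8.67, 9.80 and 7.61 CPM in WT. It fell in leaf, with a log2 fold change of -2.84 (adjusted p = 0.00398, edgeR), at a level under 2 CPM, and its interaction was -2.88 ± 0.43. HTB1, a histone H2B gene, and the histone gene AT1G09200 had interactions of -0.93 ± 0.17 and -0.88 ± 0.17. PCNA1, the sliding clamp of DNA replication, was not in the list. It stood at 8.32, 8.59 and 8.22 CPM in Epi 8 leaf against 17.5, 15.5 and 10.2 CPM in WT leaf, and at 33.6, 35.3 and 31.3 CPM in Epi 8 root against 25.9, 22 and 25 CPM in WT root. Both pairs of groups were apart in opposite directions, with an interaction of -1.24 ± 0.24 (adjusted p = 0.0481, edgeR). In bulk tissue, fewer dividing cells and less RNA per cell cannot be told apart.

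A reversal was defined as a called interaction with an unadjusted p under 0.05 in each organ and opposite signs. It held for 36 genes, 0.163% of those tested, of which 31 were lower in leaf and higher in root and 5 the opposite. None of the 36 passed the adjusted root test and 24 passed the leaf test. Of the remaining 32 genes, 25 had an unadjusted p under 0.05 in leaf only and 7 in root only. Without single plants the number of reversals ran from 0 to 81, the former without Epi 8 leaf P1, WT leaf P2, Epi 8 root P2 or WT root P3 and the latter without WT leaf P3. It was 4, 8, 1 and 8 without Epi 8 leaf P2, WT leaf P1, Epi 8 root P3 and WT root P1.

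**Figure D4:**
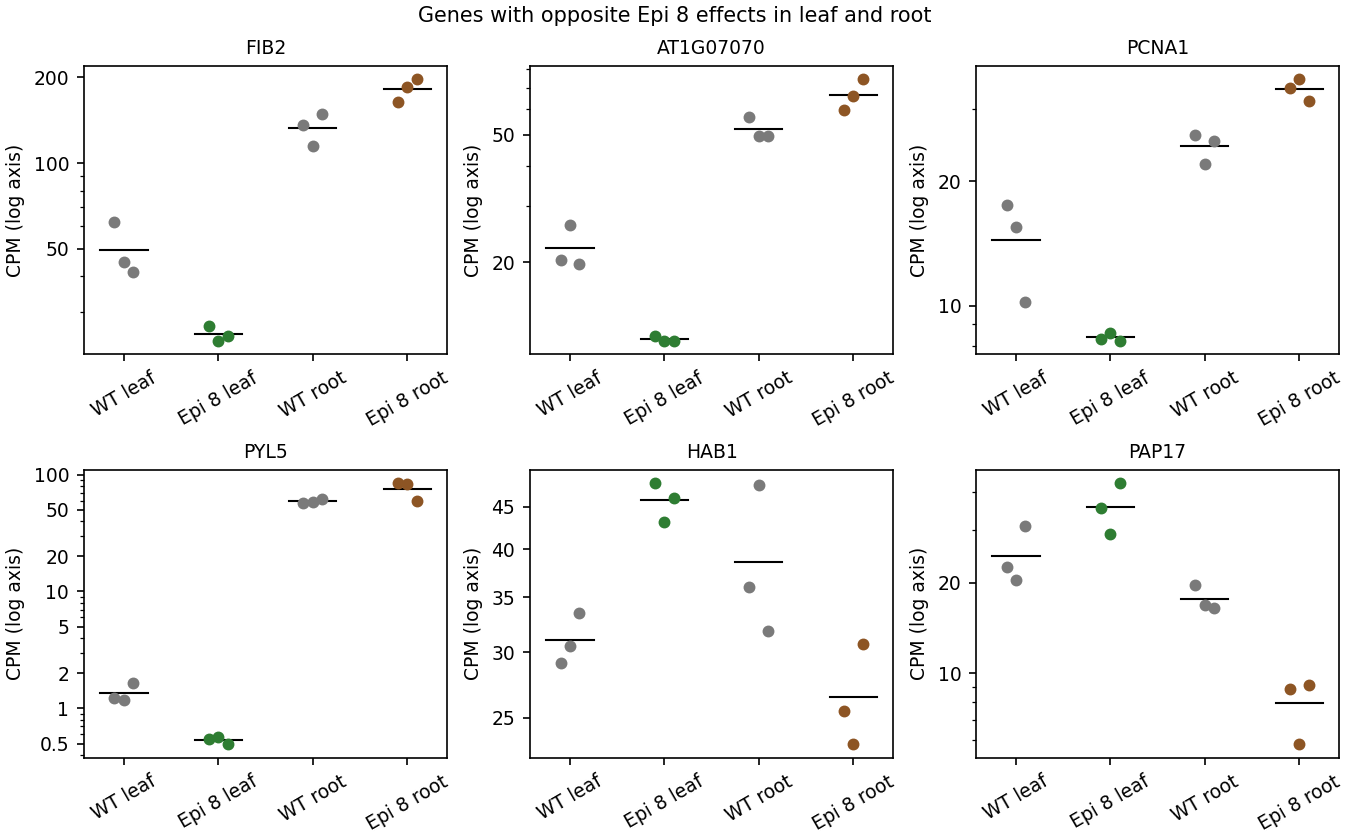
CPM on a log axis in each plant (points) with the group mean (line) for 6 genes with opposite Epi 8 effects. FIB2, AT1G07070, PCNA1 and PYL5 are lower in Epi 8 leaf than in any WT leaf plant and have a higher Epi 8 mean in root. HAB1 and PAP17 show the opposite order of means.

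PYL5, an ABA receptor, had 0.548, 0.570 and 0.491 CPM in Epi 8 leaf and 1.22, 1.17 and 1.66 CPM in WT leaf. In root, where it was far more abundant, it had 84.6, 82.6 and 59 CPM in Epi 8 and 57.3, 58.8 and 62.1 CPM in WT. The leaf groups were apart, the root groups overlapped through Epi 8 P3, and the interaction was -1.66 ± 0.25 (adjusted p = 0.0231, edgeR).

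HAB1, the ABA-inhibited phosphatase that PYL receptors bind, went the other way. It had 48.1, 43.2 and 46.2 CPM in Epi 8 leaf against 29.1, 30.5 and 33.5 CPM in WT leaf, and 25.5, 23.2 and 30.7 CPM in Epi 8 root against 36, 47.9 and 31.8 CPM in WT root. Both pairs of groups were apart, and the interaction was 1.11 ± 0.21 (adjusted p = 0.0481, edgeR). It was the single called gene of the 24 in the ABA list (4.17%, beside 0.307% of all genes). PYL5 was not in that list. The list had a median interaction of 0.96, with 0.40 in leaf and -0.35 in root. The root part of this list moved with 1 plant. WT root P2 summed to 622 CPM over the list and the other WT root plants to 447 and 405 CPM, and without it the medians were 0.48 for the interaction and -0.01 in root. HAB1 itself had 0.92 without that plant and stayed called in 1 of the 12 fits that left out 1 library.

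Among other genes lower in leaf and higher in root, AT3G05410, a PsbP family protein related to photosystem II, had 16.9, 17 and 15.2 CPM in Epi 8 leaf and 21.6, 29.6 and 24.8 CPM in WT leaf. Its root levels were 6.43, 8.80 and 6.52 CPM in Epi 8 and 3.04, 3.35 and 4.21 CPM in WT. No groups overlapped, and the interaction was -1.66 ± 0.25 (adjusted p = 0.0231, edgeR). A gene on the opposite strand overlaps AT3G05410, and the library kit does not mark strand, so reads of the pair cannot be separated. Such an overlap was present for 20 of the 68 genes in all, beside 6438 of 22114 tested. Among them were WHY3, AGP21, PAP17, AT3G54500, MTO3, AT1G14810, AT5G43440, AT2G40205, RPL27AB and AT4G13170.

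WHY3, a single-stranded DNA-binding protein, was at 35.6, 34.8 and 34.4 CPM in Epi 8 leaf against 51.1, 45.7 and 49.1 CPM in WT leaf. In root it was at 8.52, 12 and 9.06 CPM in Epi 8 against 6.31, 6.36 and 6.97 CPM in WT. The groups were apart in both organs, with an interaction of -1.07 ± 0.18 (adjusted p = 0.0334, edgeR). HEME2, uroporphyrinogen decarboxylase of tetrapyrrole synthesis, had 253, 209 and 238 CPM in Epi 8 leaf against 365, 345 and 343 CPM in WT leaf. Its root levels of 24.1, 25.4 and 24.2 CPM in Epi 8 were above the 14.1, 22.4 and 16.7 CPM of WT, and the interaction was -1.06 ± 0.20. RACK1B_AT, a scaffold protein of the small ribosomal subunit, had an interaction of -1.22 ± 0.20, from -0.90 in leaf and 0.32 in root. AT5G54970, an uncharacterized protein, had -1.07 ± 0.20.

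In the opposite direction, PAP17, a purple acid phosphatase induced when phosphate is short, had 35.5, 29 and 42.9 CPM in Epi 8 leaf and 22.5, 20.4 and 30.9 CPM in WT leaf. In root it had 8.86, 5.79 and 9.14 CPM in Epi 8 and 19.6, 16.8 and 16.5 CPM in WT. The leaf groups overlapped, the root groups did not, and the interaction was 1.69 ± 0.29 (adjusted p = 0.0314, edgeR). PAP17 was the only call among the 25 tested genes of the phosphate list (4.0%, beside 0.307% of all genes). The median interaction of that list was 0.13.

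PARVUS, a glycosyltransferase of xylan synthesis, had 27.8, 27.5 and 32.8 CPM in Epi 8 leaf against 15.8, 15.8 and 17.8 CPM in WT leaf, and 10.5, 9.32 and 8.80 CPM in Epi 8 root against 11.6, 10.1 and 14.8 CPM in WT root. Leaf was higher without overlap, root overlapped, and the interaction was 1.18 ± 0.22 (adjusted p = 0.0426, edgeR). AT5G64550, a loricrin-like protein, had 53.2, 53.9 and 67.7 CPM in Epi 8 leaf against 37.3, 35.3 and 44.4 CPM in WT leaf. Its root levels were 4.26, 3.57 and 3.48 CPM in Epi 8 against 7.04, 6.49 and 7.16 CPM in WT. All groups were apart, with an interaction of 1.45 ± 0.20 (adjusted p = 0.0201, edgeR).

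In 7 genes the unadjusted p was under 0.05 in root only. PRR3, a pseudo-response regulator of the evening part of the clock, was at 163, 173 and 170 CPM in Epi 8 leaf against 141, 166 and 173 CPM in WT leaf. In root it was at 7.47, 6.53 and 5.58 CPM in Epi 8 against 2.32, 2.49 and 3.03 CPM in WT. The leaf groups overlapped, every Epi 8 root plant was above every WT root plant, and the root rise of 1.32 ± 0.15 passed the test on its own (adjusted p = 0.0154, edgeR), with an interaction of -1.24 ± 0.19. AT5G21100, an ascorbate oxidase, had 1.09, 0.653 and 1.12 CPM in Epi 8 root against 2.59, 3.52 and 3.17 CPM in WT root, and a leaf fold change of 0.02. Its interaction was 1.72 ± 0.31 (adjusted p = 0.0378, edgeR). ASPG1, an aspartic protease, had 46.8, 39.1 and 44.7 CPM in Epi 8 root against 71.6, 63.9 and 79.1 CPM in WT root, and an interaction of 0.92 ± 0.17.

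AT3G54500, for which the RefSeq gene table lists the synonym LNK2, a morning-phased coactivator of the clock, had 40.9, 39.1 and 36.2 CPM in Epi 8 root against 57.6, 72.6 and 61 CPM in WT root. Its leaf levels were 31.4, 34.9 and 35 CPM in Epi 8 against 31.6, 27.9 and 28.6 CPM in WT. The root groups were apart, the leaf groups overlapped, and the interaction was 0.92 ± 0.16 (adjusted p = 0.029, edgeR). All 9 morning clock genes had a positive interaction, with a median of 0.86 (leaf 0.26, root -0.60), and 5 (55.6%) passed at an unadjusted p, beside 11.0% of all genes. The evening list of 12 genes had a median of -0.15 and PRR3 as its only call (8.33%, beside 0.307% of all genes). The hour of sampling is not given in the sources used here.

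Among the 68 genes, PME61 and AT3G27250 had the largest fitted interactions, -7.54 ± 0.89 and 7.43 ± 1.02, because 1 root group had no counts. Across the settings they ran from -7.87 to -4.66 and from 4.67 to 7.81, a spread that these SEs do not cover. PME61, a pectin methylesterase, had 12, 14 and 8 counts in Epi 8 root and 0 in each WT root library, and was at least 10.8-fold higher in Epi 8 root against a floor of 3 counts over the group. In leaf it was at 12.2, 13.2 and 14.1 CPM in Epi 8 and 14.5, 16.7 and 13.4 CPM in WT, with overlap. AT3G27250, an uncharacterized protein, had 0 counts in each Epi 8 root library and 11, 10 and 10 in WT root, at least 10.8-fold lower in Epi 8. Its leaf levels overlapped, at 4.10, 3.32 and 3.24 CPM in Epi 8 and 2.66, 2.99 and 3.88 CPM in WT. With both genes at their bounds the median interactions of the 2 groups remained -0.99 and 1.57.

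Another pair of genes was abundant in root and near the floor in leaf. AT4G38080, a hydroxyproline-rich glycoprotein, had 0.382, 0.521 and 1.13 CPM in Epi 8 leaf and 0.107, 0.0317 and 0.0316 CPM in WT leaf, beside 109 to 125 CPM in Epi 8 root and 119 to 170 CPM in WT root. AT2G23540, a GDSL-like lipase, had 34, 15 and 12 counts in Epi 8 leaf and 6, 0 and 1 in WT leaf. Their interactions were 3.60 ± 0.57 and 3.85 ± 0.74, both from leaf. Without WT leaf P1, which held most of the WT leaf counts, they were 4.45 and 5.62, and AT2G23540 stayed called in 1 of the 12 fits that left out 1 library. The most abundant root marker, PYK10, was at 0.0832 to 0.0999 CPM in Epi 8 leaf and 0.0401 to 0.471 CPM in WT leaf. In all, 6 of the 68 genes were under 1 CPM in 1 organ.

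In a pair of arabinogalactan protein genes, which encode heavily glycosylated proteins of the cell surface, the change lay in leaf. AGP12 had 6.06, 5.66 and 5.52 CPM in Epi 8 leaf against 17.9, 12.7 and 11.1 CPM in WT leaf, and 128, 137 and 131 CPM in Epi 8 root against 113, 136 and 133 CPM in WT root. The leaf groups were apart and the root groups overlapped, with an interaction of -1.33 ± 0.21 (adjusted p = 0.0253, edgeR). AGP21 fell in leaf, with a log2 fold change of -1.40, and had -0.22 in root, the pair of effects differing by -1.18 ± 0.19. AT2G41650, an uncharacterized protein, had an interaction of -1.18 ± 0.14, from -1.02 in leaf and 0.16 in root, and was called in 9 of the 12 fits without 1 library.

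Outside the cytosolic ribosomal proteins, 14 called genes of lower leaf effect fell outside the naming rule and are given here after their values were seen. MTO3, an S-adenosylmethionine synthetase, had 349, 342 and 327 CPM in Epi 8 leaf against 516, 539 and 479 CPM in WT leaf, and 532, 630 and 583 CPM in Epi 8 root against 423, 401 and 495 CPM in WT root. The groups were apart in both organs in opposite directions, and the interaction was -1.0 ± 0.16 (adjusted p = 0.0273, edgeR). AT1G14810, a semialdehyde dehydrogenase family protein, had -1.08 ± 0.15, from -0.78 in leaf and 0.29 in root. RACK1C_AT, a paralog of RACK1B_AT, had -1.05 ± 0.20. A further pair belongs to ribosome assembly by annotation: AT2G43110, a subunit of the complex around the U3 RNA, had -0.92 ± 0.16 and AT3G23620, a Brix domain protein of ribosomal RNA processing, -0.84 ± 0.15. HDT4, related to histone deacetylases, had -0.99 ± 0.17. GRP4, a glycine-rich RNA-binding protein, fell in leaf, with a log2 fold change of -1.16, and had 0.02 in root. AT5G43440, a 2-oxoglutarate-dependent oxygenase, was the reverse, with 0.07 in leaf and a root rise of 1.04 ± 0.14 (adjusted p = 0.036, edgeR). The remaining 6, AT3G02790, AT3G52040, AT4G34290, AT3G13230, AT3G16370 and AT5G02050, all met the definition of a reversal, with interactions from -0.98 to -0.86. Those genes encode proteins of zinc finger, phosphoglycerate mutase, SWIB domain, KH domain, GDSL lipase and mitochondrial glycoprotein families.

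The lists for cold and salicylic acid had large medians and no called gene. The cold list had a median interaction of 0.96 and a root median of -0.51. At an unadjusted p, 5 of its 18 genes (27.8%) passed, beside 11.0% of all genes. WT root P2 summed to 3655 CPM over this list where the other WT root plants had 1749 and 1641 CPM, and without it the medians were 0.39 and -0.19. LTI78, a cold- and drought-induced gene, had an interaction of 2.80 ± 0.82 (adjusted p = 0.141, edgeR). The salicylic acid list had a median interaction of 0.91 and 1 of 27 genes (3.7%) at an unadjusted p, beside the same 11.0%. Epi 8 leaf P3 summed to 8625 CPM over it, the other Epi 8 leaf plants to 5025 and 4862 CPM and WT leaf to 4086, 4471 and 4541 CPM, and without P3 the median interaction was 0.19. The DNA methylation list gave none of 41 genes and a median of -0.02. In the remaining lists, for light, jasmonate, immunity, heat shock, cell wall, root cell types, nutrients, water channels, secondary metabolism, auxin, cytokinin and starch, no gene was called beyond PAP17.

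Floral stem was a further organ of the same line. The stems came from plants 6 weeks old, raised in 12 h days at 22 °C, an age unlike that of either other organ. Libraries of 6 plants, 3 of Epi 8 and 3 of WT, measured 67 of the 68 genes, and none was called in stem, where 0.0262% of all genes were (adjusted p from 0.0829 to 0.992, edgeR). An unadjusted p under 0.05 was found for 4 of them, a share no higher than the 8.80% of all genes. The stem fold change was positive in 48 of the 58 genes with the lower leaf effect, beside 9911 of 19118 over all genes. The median of the 58 was 0.21. Of the 48, 22 encoded cytosolic ribosomal proteins, and genes measured in the same plants are not independent, so the signs were not tested. The stem fold change was positive in 5 and negative in 4 of the 9 others. PRR3 had a stem value of -2.38 and a root value of 1.32, with a stem adjusted p of 0.0829. The median of the cytosolic ribosomal protein list in stem was 0.27, beside -0.55 in leaf and 0.13 in root, and 0.01 over all genes in stem. Stem plants of a further line were in the same fit and entered its estimate of spread. Whether stem differed from leaf was not tested.

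**Figure D5:**
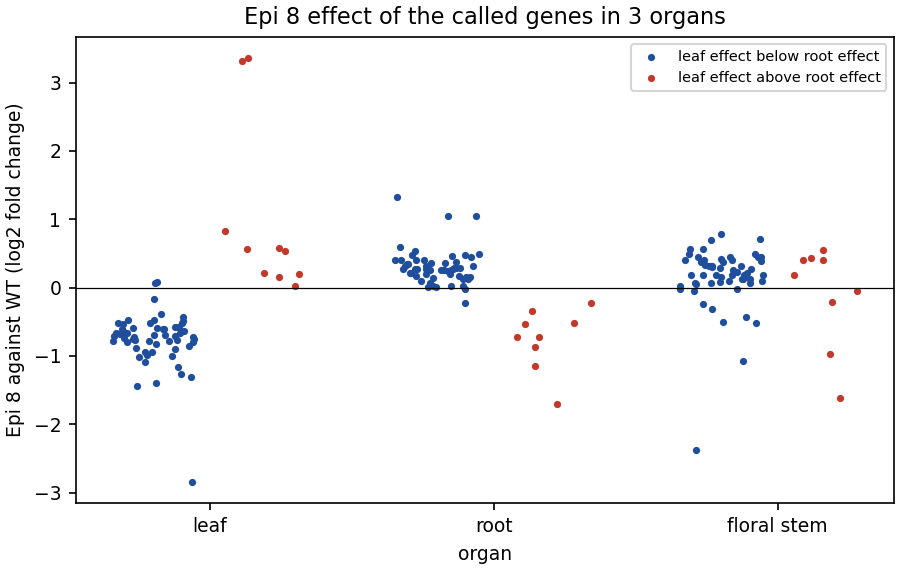
Epi 8 against WT log2 fold change of the called genes in leaf, root and floral stem, 1 point per gene, with the 58 genes of lower leaf effect in blue and the 10 of higher leaf effect in red. Blue points lie mostly below 0 in leaf and above 0 in root and stem. Values beyond an absolute log2 of 4 (PME61 and AT3G27250 in root) are not drawn.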

How the data were processed

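RNA was sequenced from individual plants with a TruSeq RNA v2 kit, which does not mark strand. Upstream, the authors used TrimGalore for trimming, STAR 2.7.3a for alignment to TAIR10, QoRTs for gene counts and edgeR 3.26.8 for testing. The deposited values are raw gene counts, whole numbers with no normalization. The 5 summary entries of each file that name no gene were left out of library sizes and tests. Reads outside genes were 0.717 to 0.947% of counts in leaf and 4.41 to 5.02% in root, and ambiguous reads 0.254 to 0.299% and 0.802 to 0.908%. All libraries differed from each other beyond sampling noise, so none was counted as a repeat.

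Counts of 12 libraries entered 1 fit with 4 groups in edgeR 4.0.16 (R 4.3.3; filterByExpr, TMM, quasi-likelihood), and the interaction and each organ's effect were tested as contrasts over 22114 genes of the 33977 counted. A call needed a Benjamini-Hochberg adjusted p under 0.05 and an absolute log2 change of at least 0.5. Each SE (±) was derived from the test, as the absolute log2 change divided by the square root of its F statistic. Of the counted genes 32548 matched the RefSeq annotation. The study's methods state no interaction test. On simulated data with 21832 genes, 100 of 100 genes changed 4-fold and 59 of 100 changed 2-fold in the interaction were recovered, with 7 false calls among 166. The simulated counts were drawn independently for each gene, without deviations shared across the genes of a plant. Changes were placed only in genes expressed in both organs. The rate of false calls therefore need not hold for the real libraries. Stem was fitted separately over 9 libraries, which included the stem plants of a further line, Epi 24. Those plants entered the estimate of spread behind the stem p-values. The alternative fit with 18 libraries added leaf plants of Epi 10 and root plants of Epi 24. Alternatives covered scaling, filter, test, samples, thinned leaf counts, the replicate block and each library left out, with DESeq2 1.42.0 and limma 3.58.1 among the tools.

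Plant numbers are shared by the groups, but same-numbered plants did not deviate together in every pair, so the numbers were not taken as pairs. The genes named were, among called genes with at least 1 CPM in each organ, the 10 with the largest interaction in each direction, up to 6 reversals in each direction, called members of each list up to 6 (otherwise 3 by p), up to 3 low genes in each direction, and MSH1. The comparison, the lists and the rule were chosen with earlier results of these data known. The ribosomal protein list was widened to further annotated family names after calls had been seen.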

Additional observations from a re-analysis of the deposited data

Results flagged for a closer look

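These values were singled out because the effect of Epi 8 differed between leaf and root by a test of the difference itself (edgeR interaction, adjusted p from 0.0201 to 0.0481). They were 68 genes, of which 36 met the definition of a reversal.

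Among the named genes with the leaf effect below the root effect, the interaction log2 differences were -7.54 for PME61, -2.88 for AT3G27360, -1.66 for AT3G05410, -1.66 for PYL5, -1.45 for AT2G25210, -1.43 for FIB2 and -1.33 for AGP12. They were -1.29 for AT1G07070, -1.24 for PRR3, -1.24 for PCNA1, -1.22 for RACK1B_AT, -1.18 for AGP21, -1.18 for AT2G41650 and -1.15 for AT3G53890. Next came -1.07 for AT5G54970, -1.07 for AT2G40205, -1.07 for WHY3, -1.06 for HEME2, -1.04 for AT4G18100 and -1.03 for AT4G31985. The smallest were -0.93 for HTB1, -0.92 for PUM24, -0.92 for PSRP4, -0.88 for AT1G09200 and -0.80 for OLI2.

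With the leaf effect above the root effect, they were 0.92 for AT3G54500, 0.92 for ASPG1, 1.11 for HAB1, 1.18 for PARVUS, 1.45 for AT5G64550, 1.69 for PAP17, 1.72 for AT5G21100, 3.60 for AT4G38080, 3.85 for AT2G23540 and 7.43 for AT3G27250.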

How the results depend on the processing

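The 68 interaction calls became 2429 at an unadjusted p, 164 with the filter passed in each organ, 901 with edgeR's likelihood ratio test, 793 with DESeq2, 150 with limma voom, 1005 with each organ fitted alone and 24 with 18 libraries in the fit. For the 201 leaf calls the same settings gave 1481 (unadjusted p), 657 (likelihood ratio), 610 (DESeq2), 507 (voom), 39 (alone) and 131 (18 libraries). For the 4 root calls they gave 1030, 285, 160, 0, 0 (fitted alone), 2 with the filter passed in each organ and 1 with leaf counts thinned to root depth. For the 36 reversals they gave 247, 267, 241, 61, 228, 12 with 18 libraries, 79 with the filter and 21 with TMM within each organ. The cause of these shifts was not tested. Scaling by RLE gave 85 interaction calls, TMM within each organ 48, no filter 99 and thinning 54, and dropping the fold limit left 68. Of the 68 genes, 67 were called with RLE, 48 with TMM within each organ and 49 after thinning.

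Without 1 library at a time, the calls ran from 0 to 167 for the interaction, 26 to 233 for leaf, 0 to 24 for root and 0 to 81 for reversals. In floral stem 5 genes were called, all lower in Epi 8, with 0 to 8 without 1 library and 27 without a filter, settings chosen after seeing the data. With the plant number as a replicate block, the calls were 26 for the interaction, 108 for leaf, 0 for root and 16 for reversals. Same-numbered plants correlated in their deviations by 0.225, 0.055 and 0.227 in leaf and 0.029, 0.034 and -0.024 in root. No named gene reversed its direction under any of these alternatives. Leaf libraries were deeper than root libraries, so low root genes were measured with less precision.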

Other observations

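Of the 68 called genes, 24 (35.3%) lay on chromosome 3, which holds 19.7% of the genes tested and also MSH1. Outside the cytosolic ribosomal proteins the share was 17 of 43 (39.5%), and the ribosomal protein list itself had 51 of 176 genes (29.0%) there. The 24 called genes on chromosome 3 lay between bases 604785 and 21996840, on both sides of MSH1 (8822924 to 8829728). The chromosome shares were noticed in the data and not tested.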
